A study of Homo sapiens with 4 samples.

Results

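The cytosolic HSP70 and HSP90 machinery was examined in HCT116, an established line from a human colon carcinoma, through 10 genes: HSPA8, HSPA4, HSPH1, HSP90AA1, HSP90AB1, STIP1, FKBP4, AHSA1, CHORDC1 and HSPB1. A gene was followed through the probe sets for which the platform annotation gave its symbol alone. Such probe sets were present for 8 of the 10 genes, of 19775 genes with a probe set of 1 symbol in the series. There were 23 of these probe sets, and 22 of them exceeded the signal minimum used for testing, a mean of 300 units over the arrays. All 8 genes were tested, within a total of 8721 tested genes. The 4 probe sets annotated to HSPA8 also carried the symbols of small nucleolar RNA genes and were not assigned, and no probe set was listed for AHSA1 alone, so neither gene is given a value.

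RNA came from 2 multicellular spheroid (MCS) cultures and 2 monolayer cultures, all of them HCT116 cells without drug treatment, and each culture was measured on its own array. Per the study's methods, spheroids formed in hanging drops in coated wells, and an array of whole spheroids averages their rim and core. Both groups are 1 cell line, and the cultures of a group were independent. Values are MAS5 signals, a linear brightness in arbitrary units that the authors scaled to an equal average on every array. Fewer transcripts per cell and fewer cells that contain a transcript cannot be told apart in such bulk RNA. Differences are log2 values, spheroid minus monolayer, with their standard errors, and a gene is called when limma's moderated test gave an adjusted p under 0.05 (n = 2 cultures per group).

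HSP70 and HSP90 are ATP-driven chaperones that help other proteins to fold and keep many signalling proteins in an active form. HSP70 binds unfolded stretches of a client, releases it when an exchange factor removes ADP, and can pass it to HSP90 through the adaptor encoded by STIP1. Co-chaperones then steer the HSP90 cycle and the choice of client. Tumour cells are known to carry large amounts of this machinery, and many of its genes are driven by heat shock factor HSF1.

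The arrays of each group resembled each other. Across tested genes, the arrays correlated at 0.979 between spheroids and at 0.984 between monolayers, and at 0.889 to 0.902 between groups. Epithelial markers were bright in all cultures, with 6 of 7 above the signal minimum and a summed signal of 93368 to 97841 in spheroids and 80757 to 88605 in monolayers. The sum is mostly EPCAM and KRT18, which were not called, and 3 of the 6 were higher in spheroids: CLDN4 (2.73 ± 0.21), CDH1 (1.73 ± 0.19) and KRT19 (0.79 ± 0.12). KRT8 ran the other way, with 5962 and 4003 in spheroids and 7851 and 6056 in monolayers. It was not called (-0.49 ± 0.19, limma adjusted p = 0.0534). No leukocyte or endothelial marker passed the minimum, and their summed signals were at most 461 and 160 in spheroids and 539 and 328 in monolayers. Of 6 fibroblast markers only COL1A1 passed, with 2222 and 2659 in spheroids and 869 and 658 in monolayers (1.64 ± 0.20, limma adjusted p = 5.95e-05). The part of these marker differences in the results was not tested.

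Spheroids had lower transcript signals of the HSP110-type exchange factors HSPA4 and HSPH1 and of the co-chaperones STIP1, FKBP4 and CHORDC1, with log2 differences of -1.43 to -0.85. HSP90AA1, HSP90AB1 and HSPB1 were not called. Of the 8 tested genes 5 were lower, 0 were higher and 3 were not called, where 20.6% of all tested genes were lower and 19.0% higher. The median difference of the 8 was -0.92, against -0.030 for all tested genes. Both spheroid arrays lay below both monolayer arrays for 6 of the 8, as they did for 36.6% of all tested genes.

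**Figure D1:**
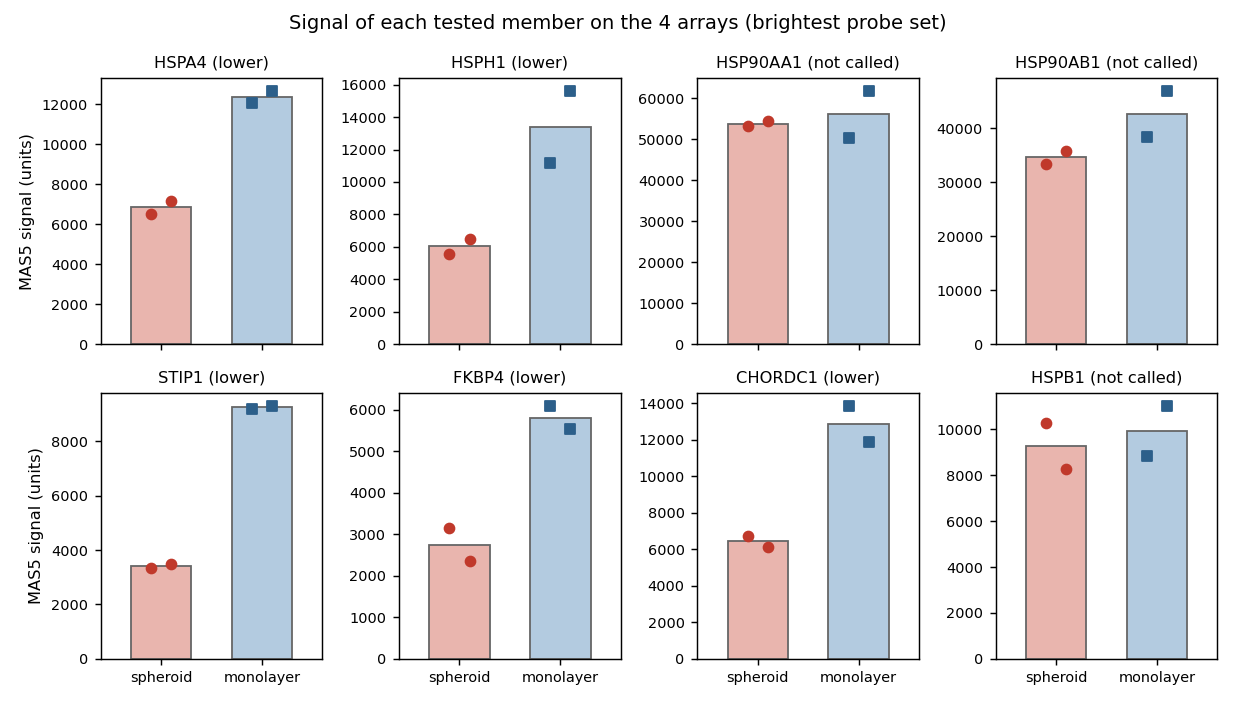
MAS5 signal (y, units, axis from 0) of the brightest probe set of each tested gene in spheroids (left bar, circles) and monolayers (right bar, squares); bars are means and points are the 2 arrays of each group. The 5 genes called lower show spheroid points well below the monolayer points, such as 3344 and 3496 against 9198 and 9306 for STIP1, while those of HSP90AA1 and HSPB1 overlap.

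The HSP110-type exchange factors of HSP70 were lower in spheroids. HSPH1 encodes HSP105, which removes ADP from HSP70 and also holds unfolded proteins, and its signal was 5551 and 6490 in spheroids and 11167 and 15604 in monolayers. The groups were far apart, although the monolayer arrays differed more from each other than the spheroid arrays did. The difference was -1.13 ± 0.16 (limma adjusted p = 1.92e-04), and 2.02% of tested genes had a more negative one. HSPA4, a close relative of HSPH1 that acts on the same step, had 6529 and 7165 in spheroids and 12045 and 12660 in monolayers. Its spheroid mean was 55.4% of its monolayer mean, a difference of -0.85 ± 0.12 (limma adjusted p = 2.29e-04).

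All 7 probe sets of HSPH1 and HSPA4 had lower signals in spheroids on both arrays, and 6 of them were called. Over all tested probe sets, 35.0% had both spheroid arrays below both monolayer arrays, and 17.2% were called lower. The other probe sets of HSPH1 differed by -1.56 ± 0.27 (208744_x_at) and -0.79 ± 0.25 (235573_at), the second of them dim, with 263 and 258 in spheroids and 412 and 541 in monolayers. The call of 235573_at was lost without spheroid replicate 1 (-0.80), without spheroid replicate 2 (-0.77) and without monolayer replicate 2 (-0.60). It was also lost without a filter on the mean signal (limma adjusted p = 0.115). For HSPA4, 211015_s_at and 211016_x_at gave -0.83 ± 0.12 and -1.02 ± 0.20. The dimmest, 208814_at, had 352 and 443 in spheroids and 534 and 727 in monolayers, and its difference of -0.62 ± 0.25 was not called (limma adjusted p = 0.0765). HSPA4 therefore lost its call where probe sets ending in _x_at or _s_at, which can bind several transcripts, were left out.

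The cytosolic HSP90 genes were among the brightest on the arrays and moved little. HSP90AA1, the form that stress induces most strongly, had 53190 and 54455 in spheroids and 50395 and 61786 in monolayers on its brightest probe set. Both spheroid values lay between the monolayer values, and the difference was -0.052 ± 0.11 (limma adjusted p = 0.732, 95% interval -0.29 to 0.18). HSP90AB1, the constitutive form, had 33477 and 35842 in spheroids and 38367 and 46925 in monolayers. Here the groups did not overlap, yet the difference of -0.29 ± 0.11 missed the threshold (limma adjusted p = 0.0572, 95% interval -0.54 to -0.046).

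Individual probe sets of the HSP90 genes gave different answers. On HSP90AA1, the difference was -0.052 on 214328_s_at, -0.13 ± 0.11 on 211969_at, -0.29 ± 0.10 on 210211_s_at and -0.49 ± 0.10 on 211968_s_at, in order of falling brightness. The last of these had 24442 and 23713 in spheroids and 32617 and 35231 in monolayers and was called (limma adjusted p = 0.00456), as was 210211_s_at (limma adjusted p = 0.0485). On HSP90AB1, 214359_s_at was called with 26670 and 28035 in spheroids and 34951 and 39762 in monolayers (-0.45 ± 0.11, limma adjusted p = 0.00913), while 1557910_at was not (-0.32 ± 0.14, limma adjusted p = 0.0987). These 3 calls were also lost without an intensity trend in the variance model, at adjusted p of 0.0608 to 0.232 (limma), and without a filter on the mean signal, at 0.0662 to 0.299. With a minimum of 100 units 210211_s_at missed the threshold (limma adjusted p = 0.0530). Leaving out an array, which leaves fewer arrays to the test, also cost calls, while the differences stayed negative. The call of 210211_s_at was lost without either spheroid array (-0.36 and -0.22) or monolayer replicate 2 (-0.23). That of 214359_s_at was lost without either spheroid array (-0.41 and -0.48), and that of 211968_s_at without spheroid replicate 2 (-0.47). In all 3 probe sets both spheroid arrays lay below both monolayer arrays, as in 35.0% of all tested probe sets.

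The brightest HSP90AA1 probe set averaged 54957 units over the arrays, and the highest signal of any probe set on an array was 66799 to 76865. Of all probe sets other than controls, 55 were at least as bright as 214328_s_at, itself included. The part of brightness in these differences was not tested.

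**Figure D2:**
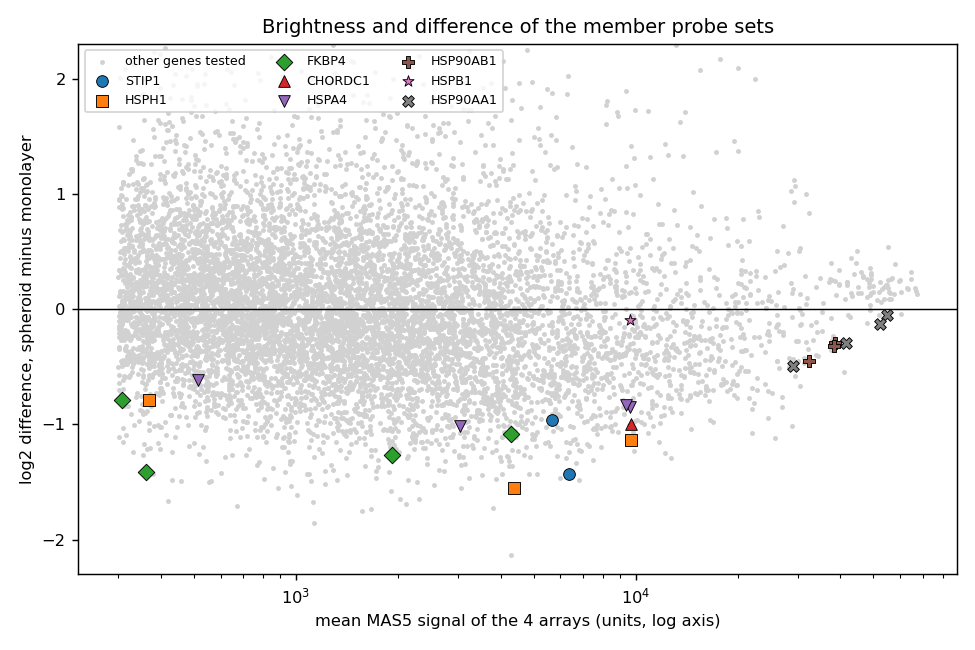
Mean signal over the 4 arrays (x, units, log axis) against the log2 difference between spheroids and monolayers (y) for the 22 tested probe sets of the 8 genes (coloured symbols) and the other tested genes (grey, 1 probe set each, cropped at ±2.3). HSP90AA1 and HSP90AB1 lie at the bright end between -0.052 and -0.49, and the co-chaperones and exchange factors lie lower at intermediate and low signals.

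All 3 measured co-chaperones of the 10 genes were lower in spheroids. STIP1 encodes HOP, the adaptor that holds HSP70 and HSP90 at once, and had 3344 and 3496 in spheroids and 9198 and 9306 in monolayers. The arrays of each group agreed closely, and the difference of -1.43 ± 0.13 was the lowest of the 8 (limma adjusted p = 7.70e-06). Only 0.447% of tested genes had a more negative value, and the monolayer mean was 2.71-fold the spheroid mean. Its other probe set, 212009_s_at, had 3790 and 3888 in spheroids and 6985 and 8053 in monolayers (-0.96 ± 0.14), so the size of the fall depended on the probe set. The 95% intervals of the 2 were -1.72 to -1.14 and -1.27 to -0.65, which overlap.

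FKBP4 encodes FKBP52, an immunophilin known for its place in steroid receptor complexes with HSP90. Its brightest probe set had 3154 and 2345 in spheroids and 6091 and 5526 in monolayers, with the spheroid arrays further apart than the monolayer arrays. The difference was -1.08 ± 0.16 (limma adjusted p = 3.15e-04). Of its 3 dimmer probe sets, 200894_s_at (-1.27 ± 0.18) and 1560303_at (-1.41 ± 0.28) were called, and 1560305_x_at was not, with 199 and 230 in spheroids and 317 and 486 in monolayers (-0.79 ± 0.29, limma adjusted p = 0.0543).

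CHORDC1 encodes an HSP90-binding protein that carries cysteine- and histidine-rich domains. Its signal was 6750 and 6129 in spheroids and 13863 and 11896 in monolayers. The means were 6439 ± 439 in spheroids and 12880 ± 1391 in monolayers (SD, n = 2 each), and the groups were far apart. The difference was -0.99 ± 0.13 (limma adjusted p = 1.16e-04). A second probe set of the gene, 239436_at, stayed far below the signal minimum with 57.1 and 44.5 in spheroids and 29.1 and 34.9 in monolayers, and was not tested. It ran in the opposite direction, at signals near those of the unspiked bacterial controls (4.47 to 35.0).

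HSPB1, the small heat shock protein HSP27, which binds unfolded proteins without ATP, showed no call. Its only probe set had 10293 and 8284 in spheroids and 8848 and 11027 in monolayers. The groups overlapped, and the difference was -0.097 ± 0.15 (limma adjusted p = 0.637, 95% interval -0.42 to 0.23).

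Among the 22 tested probe sets, 15 were called lower and 0 higher, where 17.2% of all tested probe sets were lower. All 22 had a difference below 0, and in 18 both spheroid arrays lay below both monolayer arrays, as in 35.0% of all tested probe sets. Probe sets of a gene share its transcript and are not independent. Every tested probe set was called for HSPH1, STIP1 and CHORDC1, the last with 1 tested. In the order of the gene differences, STIP1 was followed by HSPH1, FKBP4, CHORDC1, HSPA4, HSP90AB1, HSPB1 and HSP90AA1. The 95% intervals of neighbours in this order overlapped except between HSPA4 (-1.12 to -0.58) and HSP90AB1 (-0.54 to -0.046). This gap holds for the brightest probe sets only, as the interval of 214359_s_at of HSP90AB1 (-0.68 to -0.21) overlapped that of HSPA4. The genes were not tested against each other.

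**Figure D3:**
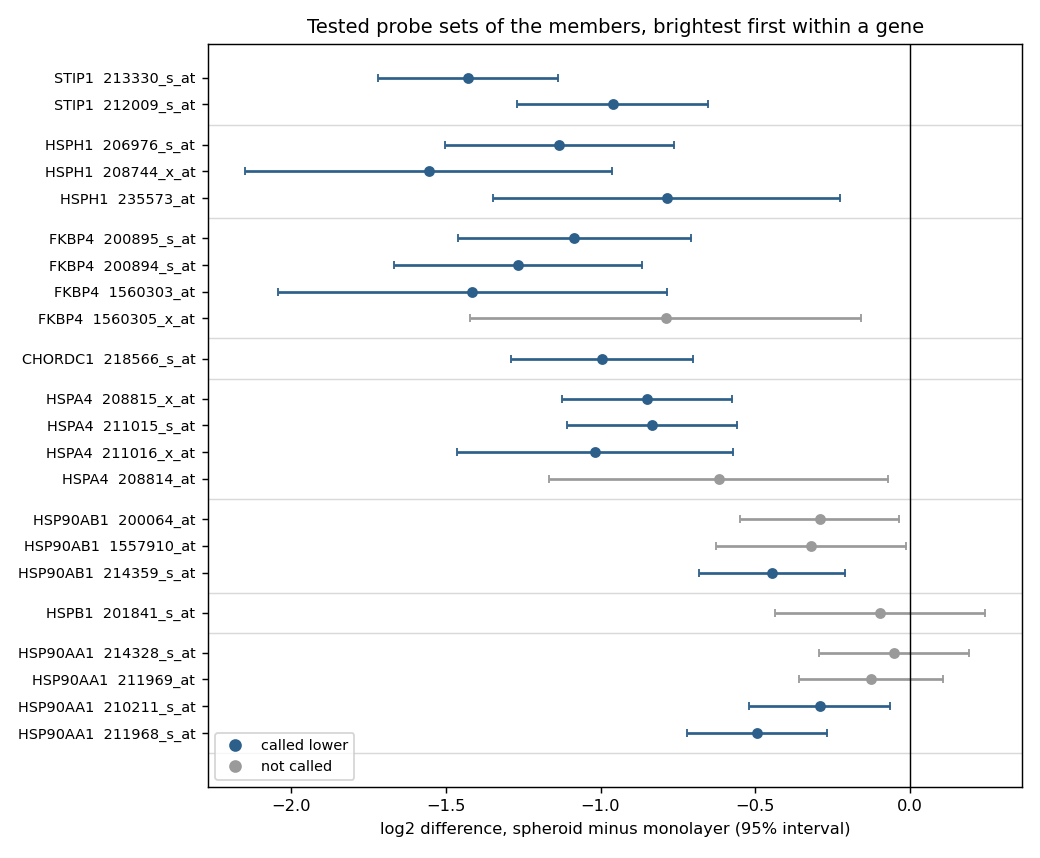
Log2 difference between spheroids and monolayers with its 95% interval (x) for each tested probe set (y), grouped by gene and sorted by brightness within a gene; blue is called lower and grey not called. All 22 points lie below 0, from -1.56 for 208744_x_at of HSPH1 to -0.052 for 214328_s_at of HSP90AA1.

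Heat shock elements were looked for in the promoters of the 10 genes as a description. HSF1 binds as a trimer to adjoining inverted GAA units. The search used 3 such units, GAANNTTCNNGAA and its reverse complement TTCNNGAANNTTC, in RefSeq windows of 300 bases (250 before and 50 after a transcription start, GRCh38.p14). Windows were available for 9 of the 10 genes, 14 windows in all, and FKBP4 had none. A match was found in 4 windows, of HSPA8, HSP90AA1, HSP90AB1 and CHORDC1, and 0.490% of all 35116 windows held one. Many genes of this machinery are known to be driven by HSF1, so these counts describe the list and not the difference between the cultures. The matching parts are shown for the 3 of these genes that were measured, read 5′ to 3′ on the strand of the gene, with the matched units in capitals.
HSP90AA1 (chr14:102087100-102087152, minus strand): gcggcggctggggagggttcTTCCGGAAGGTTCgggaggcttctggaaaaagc
HSP90AB1 (chr6:44247758-44247863, plus strand): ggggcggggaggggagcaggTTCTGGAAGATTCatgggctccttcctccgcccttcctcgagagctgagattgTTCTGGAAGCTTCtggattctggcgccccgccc
CHORDC1 (chr11:90223067-90223129, minus strand): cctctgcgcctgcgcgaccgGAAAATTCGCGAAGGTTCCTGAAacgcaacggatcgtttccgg

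Counted from the start site, the match of HSP90AA1 ran from -88 to -76, those of HSP90AB1 lay between -165 and -100, and the 3 overlapping matches of CHORDC1 covered -60 to -38 as 5 units in a row. Each was upstream of only 1 annotated start where a gene had several: the other window of HSP90AA1 and the other 2 of HSP90AB1 held no match. The genes that carried a match included CHORDC1, which was lower, and the HSP90 genes, which were not called. The windows of STIP1, HSPH1, HSPA4 and HSPB1 held no match. The search allowed no mismatch in the 3 units and looked only inside these windows, so imperfect or more distant elements would be missed. These are matches of letters, and binding was not measured.

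Other partners of the chaperones were counted from lists chosen with earlier results of these data known. Of 23 listed HSP70 partners and relatives, 18 were tested, and 9 were lower, 1 higher and 8 not called (median -0.48), where 20.6% of all tested genes were lower and 19.0% higher. Those not called included BAG1 (-0.054 ± 0.20), BAG4 (-0.21 ± 0.15) and BAG5 (-0.019 ± 0.18), exchange factors of the BAG family that were chosen after their values were seen. BAG2 (-0.58 ± 0.13) and BAG3 (-0.50 ± 0.13) of the same family, chosen in the same way, were lower. The largest differences were those of HSPA14, a ribosome-associated HSP70 relative (-1.27 ± 0.15), of HSPA4L, a relative of HSPA4 (-1.24 ± 0.20), and of the nucleotide exchange factor HSPBP1 (-1.19 ± 0.22). DNAJA1 and DNAJB1, J-domain proteins that start the HSP70 cycle and were chosen after their values were seen, were lower with differences of -0.61 ± 0.14 and -0.73 ± 0.13. The higher gene, also chosen after its value was seen, was ST13, which encodes the HSP70-interacting protein HIP and had 18267 and 18575 in spheroids and 13282 and 15719 in monolayers (0.35 ± 0.12, limma adjusted p = 0.0344).

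Of 24 listed HSP90 partners, 23 were tested, and 15 were lower, 0 higher and 8 not called (median -0.56), against the same 20.6% lower and 19.0% higher over all tested genes. UNC45A (-0.12 ± 0.21) and PIH1D1 (-0.041 ± 0.16), chosen after their values were seen, were among those not called. CACYBP had 9414 and 9537 in spheroids and 20222 and 18883 in monolayers (-1.04 ± 0.11, limma adjusted p = 3.27e-05). The nuclear movement protein gene NUDC differed by -0.95 ± 0.15 and the cyclophilin PPID by -0.77 ± 0.14. The kinase adaptor CDC37 and PTGES3, which encodes the closing factor p23, were chosen after their values were seen and differed by -0.61 ± 0.15 and -0.41 ± 0.097. A list of small heat shock proteins and heat shock factors, with the factor-binding protein HSBP1, had 2 of 11 genes tested. These were HSF1 (0.094 ± 0.23, limma adjusted p = 0.774) and HSBP1 (-0.23 ± 0.13, limma adjusted p = 0.186), so no small heat shock protein of this list was tested.

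Chaperones of other kinds were set beside these as a description. The CCT chaperonin and prefoldin, which fold actin and tubulin in the cytosol, were lower for 10 and higher for 1 of 12 tested genes (median -0.59), and mitochondrial chaperones and proteases for 6 and 0 of 11 (median -0.50). The higher gene, chosen after its value was seen, was the prefoldin subunit PFDN5 (0.39 ± 0.13). The lowest of the others were CCT5 (-0.97 ± 0.12) and HSPE1 (-1.12 ± 0.10). Chaperones of the endoplasmic reticulum went both ways, with 4 of 12 higher and 3 lower (median 0.22). Over all tested genes 20.6% were lower and 19.0% higher, so the share of these that was lower was near that of all genes. The largest of these were DNAJB9, a J-domain protein of that compartment (1.57 ± 0.16), and SDF2L1 (-1.5 ± 0.17). HSP90B1, the HSP90 of the endoplasmic reticulum, was chosen for the comparison after its value was seen and had 13310 and 16109 in spheroids and 9878 and 12501 in monolayers (0.40 ± 0.14, limma adjusted p = 0.0430). The mitochondrial TRAP1, chosen in the same way, had 5600 and 4715 in spheroids and 7182 and 7214 in monolayers (-0.48 ± 0.14). The differences between these lists were not tested.

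**Figure D4:**
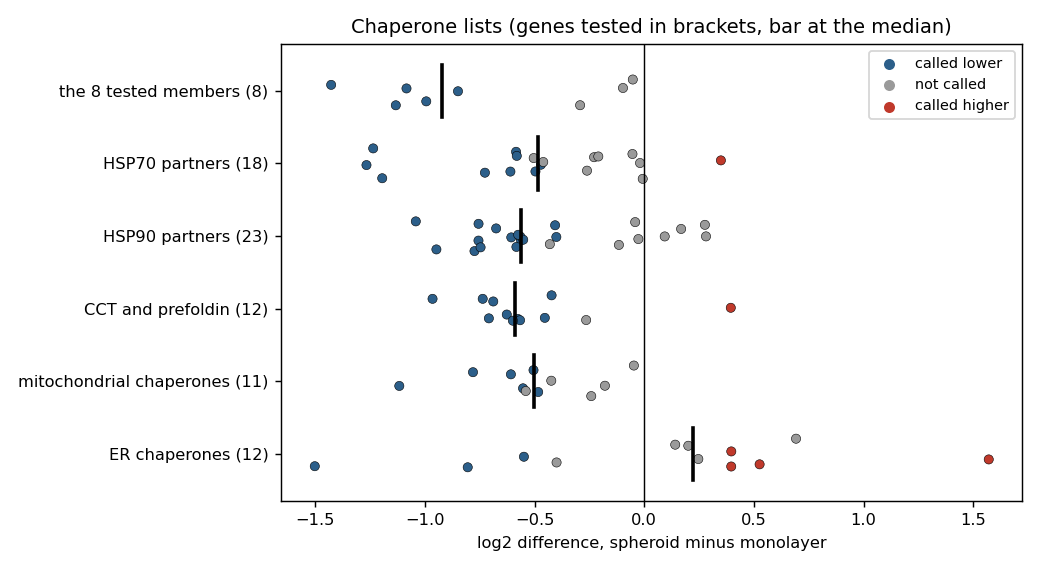
Log2 difference between spheroids and monolayers (x) of the 8 tested genes of the machinery and of the tested genes of 5 other chaperone lists (y, number tested in brackets), in blue (called lower), red (called higher) or grey (not called); the black bar marks each median. Medians run from -0.92 for the 8 genes to 0.22 for the ER chaperones.

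STIP1, HSPH1, FKBP4 and CHORDC1 kept their call in every alternative in which they had a probe set, and HSPA4 in 14 of 15. Without 1 array at a time, the difference of STIP1 ran from -1.46 to -1.40, that of HSPA4 from -0.92 to -0.78, that of CHORDC1 from -1.10 to -0.88, that of FKBP4 from -1.30 to -0.87 and that of HSPH1 from -1.37 to -0.89. HSP90AB1 was called in 6 of 15 alternatives, among them without monolayer replicate 1 (-0.44), and HSP90AA1 in 2. The sign of HSP90AA1 turned without monolayer replicate 2 (0.095), and that of HSPB1 turned without monolayer replicate 2 (0.061), without spheroid replicate 2 (0.059) and with quantile normalization (0.0095).

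The size of all these differences depends on the scaling. The poly-A spike controls, bacterial transcripts added to the RNA, were 1.82-fold brighter on spheroid arrays (geometric means 1779 and 1190, against 746 and 855 in monolayers), whereas the hybridization controls were 1.09-fold brighter. Scaling to the poly-A controls moved the median of all tested genes to -0.87 and called all 8 genes lower. With this scaling 3697 of all 8721 tested genes were called lower and 169 higher. The study's methods name a single starting amount of total RNA, but the sources used here do not give the amount of control RNA added. A departure from that input, a difference in the amount of controls and one in total mRNA cannot be told apart in these values. Relative to that median, the median of the 8 genes was -0.92 and HSP90AA1 was at -0.049, against -0.89 and -0.022 with the deposited scaling. The control ratio of the 3′ to the 5′ signal was 2.8 and 3.0 in spheroids and 2.6 and 2.3 in monolayers for ACTB. For GAPDH it went the other way, with 0.93 and 0.92 in spheroids and 1.07 and 1.02 in monolayers. The part of these ratios in the differences was not tested.

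**Figure D5:**
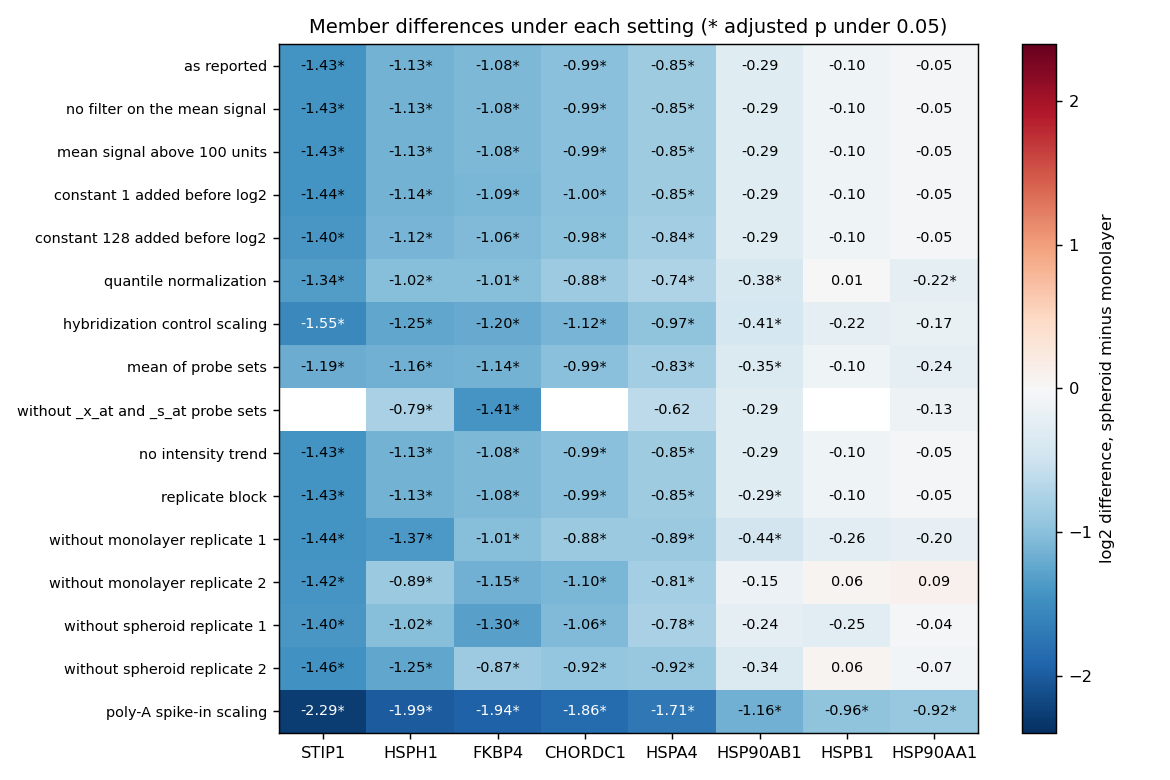
Log2 difference between spheroids and monolayers (colour and number) of each tested gene (x, from the lowest difference to the highest) under each setting (y), with an asterisk where adjusted p was under 0.05 and an empty cell where a gene had no probe set. The 5 left columns are negative throughout and called in every setting with a value, except HSPA4 without _x_at and _s_at probe sets. Scaling to the poly-A controls makes all 8 columns called, HSP90AA1 at -0.92, where 3697 of all 8721 tested genes were called lower.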

How the data were processed

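Total RNA from untreated HCT116 spheroids and monolayers, 2 independent cultures of each, was labelled with biotin and hybridized to Genome U133 Plus 2.0 oligonucleotide arrays. The deposited values are signal intensity per probe set, normalized by the authors with MAS5 (version and genome build not given in the sources used here), and they set the average of each array equal, which removes any change in total mRNA per cell. The trimmed mean signal was 500.1 on every array. Of 54675 probe sets, 41091 had 1 symbol, 1801 several and 11721 none listed, besides 62 controls.

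Signals were analysed as log2(signal + 32) for probe sets with 1 symbol and a mean above 300 units (14162 probe sets). The brightest probe set stood for its gene (8721 genes), and all probe sets were also fitted on their own. The groups were tested with limma 3.58.1 under R 4.3.3 (lmFit, then eBayes with an intensity trend, two-sided, Benjamini-Hochberg over all genes or probe sets tested), on 2 residual and 10.5 prior degrees of freedom. The script was tested on simulated data. The number of arrays limits the precision. Promoter sequences are RefSeq's (GRCh38.p14).

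The members and lists were chosen with earlier results of these data known. Every member is described. From each list up to 3 called genes with the largest differences were eligible for naming, and others are marked as chosen after their values were seen. The tests were repeated with a lower filter or none, with a smaller and a larger added constant, with quantile, spike and hybridization control scaling, with the mean of probe sets or without those ending in _x_at and _s_at, without the trend, with replicate as a block, and without each array.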

Additional observations from a re-analysis of the deposited data

How the results depend on the processing

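There were 15 alternatives. The count of 5 lower genes was 8 with poly-A spike-in scaling, 7 with quantile normalization, 6 with hybridization control scaling, the mean of probe sets and the replicate block, and 2 of the 5 that had a probe set without _x_at and _s_at probe sets, and 5 to 6 without 1 array; 0 genes were higher in any alternative (limma). The median of the genes, -0.92, became -1.78 with poly-A spike-in scaling, -1.04 with hybridization control scaling, -0.81 with quantile normalization and -0.62 without _x_at and _s_at probe sets, and ran from -0.90 to -0.85 without 1 array. Over all 8721 tested genes, 1799 lower and 1656 higher genes became 3697 and 169 with poly-A spike-in scaling. Without _x_at and _s_at probe sets only 6094 genes were tested, and 1114 of them were lower and 1118 higher. The median of all genes turned to 0.043 with no filter and 0.036 with a minimum of 100 units.

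HSPA4 lost its call without _x_at and _s_at probe sets (-0.62, limma adjusted p = 0.0677). HSP90AB1 passed with quantile normalization (-0.38), poly-A spike-in scaling (-1.16), hybridization control scaling (-0.41), as the mean of its probe sets (-0.35) and without monolayer replicate 1 (-0.44, the low end of -0.44 to -0.15 without 1 array). HSP90AA1 passed with quantile normalization (-0.22) and poly-A spike-in scaling (-0.92), and was -0.20 to 0.095 without 1 array, turning in sign without monolayer replicate 2. HSPB1 passed with poly-A spike-in scaling (-0.96) and turned in sign with quantile normalization (0.0095), without monolayer replicate 2 (0.061) and without spheroid replicate 2 (0.059); its range without 1 array was -0.26 to 0.061. The causes were not tested. Where an array was left out, the lone array of its group was assumed to vary like the others.

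The labels number the cultures, but nothing says that equal numbers mark a shared day, and deviations of same-numbered arrays correlated at 0.32. With the replicate block, 2301 genes were lower and 2114 higher, and HSP90AB1 was called (-0.29, limma adjusted p = 0.0097), the only change among the 8 genes. For single probe sets, which were fitted under 13 of these alternatives (not the mean of probe sets or the exclusion of _x_at and _s_at), 239 values kept direction and call, 26 gained a call, 17 lost it and 4 changed sign, the last on 201841_s_at of HSPB1 (0.0095, 0.061 and 0.059, as above) and 214328_s_at of HSP90AA1 (0.095).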
